A study of Mus musculus with 192 samples.

Results

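The genes described here are 10 members of the Ly6 and Ms4a families, which code for proteins of the cell surface. They were followed in mouse bone marrow-derived dendritic cells exposed to 7 ligands of pattern recognition receptors. The members were taken by name and not by a cutoff on a measured value, although earlier results of these data were known. They are Ly6a, Ly6c1, Ly6c2, Ly6e, Ly6i, Ms4a4c, Ms4a6b, Ms4a6c, Ms4a6d and Ms4a7, which are 10 of the 23481 genes counted. Per the labels, marrow came from the femurs and tibias of female C57BL/6J mice 6 to 8 weeks old and was cultured with GM-CSF. The cells were plated, left overnight and stimulated for 6 hours, and RNA was then read in bulk as counts of unique molecular identifiers (UMIs, which mark single cDNA molecules). The 64 groups of 3 libraries are Ctrl, the single ligands PAM, LPS (lipopolysaccharide), HMW, Zymosan (zymosan depleted in the labels), SeV, cGAMP (3′,3′-cGAMP in the labels) and CpGB, their 21 pairs and their 35 triplets. All groups share the strain, the culture and the exposure time, and no group carries a genetic change. The labels do not say whether the 3 libraries of a group came from separate cultures or animals, so the p-values below measure the spread between these libraries, which may be technical.

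Ly6 proteins are small, tightly folded proteins that a lipid anchor holds on the outer face of the membrane. Ly6c2 codes for the Ly6C antigen by which inflammatory monocytes are sorted, Ly6a for a stem cell antigen, and Ly6e for a broadly expressed interferon-induced protein that limits the entry of some viruses and helps that of others. Ms4a proteins cross the membrane several times, some of them in complexes with signalling receptors, and Ms4a6 and Ms4a7 genes are used as markers of monocytes and macrophages. Several members of both families are known as genes induced by type I interferon, the cytokine that antiviral sensors release and that acts back on the cells through the receptor Ifnar1-Ifnar2 and factors that include Irf9.

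The members lie in a pair of tight gene clusters. In the GRCm38 annotation the 5 Ly6 members span 156.9 kb of chromosome 15 and the 5 Ms4a members span 283.8 kb of chromosome 19, all of them protein-coding. Ly6e lies at chr15:74955051-74959905 on the plus strand. Ly6i (chr15:74979534-74983430), Ly6a (chr15:74994877-74998031), Ly6c1 (chr15:75044018-75048830) and Ly6c2 (chr15:75108158-75111970) follow on the minus strand. Ms4a7 (chr19:11321039-11336146) and Ms4a6d (chr19:11586604-11604849) are on the minus strand. Ms4a4c (chr19:11404770-11427246), Ms4a6c (chr19:11469366-11482192) and Ms4a6b (chr19:11516512-11531256) are on the plus strand.

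Members have close relatives with which they could share reads. Of the 451 windows of 50 bases in the last 500 bases of the longest protein-coding transcript, 20.0% of those of Ly6c1 occur unchanged in Ly6c2. For Ms4a4c 11.8% occur in Ms4a4b, and for Ms4a6c 10.4% occur in Ms4a6b. None of the windows from the last 500 bases of Ly6e, Ms4a6b, Ms4a6d or Ms4a7 occurs in another gene. How the authors counted reads that match 2 genes is not given in the sources used here, so the split of counts between Ly6c1 and Ly6c2, and between the other pairs, is uncertain.

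The 250 bases before the transcription start are shown for the members on which the results below turn, with RefSeq coordinates on GRCm38.p6. Starts are those of RefSeq and can differ from the ends of the spans above: that of Ms4a4c lies 2891 bases inside its span, so the stretch shown lies within the annotated gene. An entry was found for 6 of the 10 members. Capitals mark GAAA and its reverse complement TTTC, the core of the elements that interferon regulatory factors bind. Ms4a4c, which rose with the stimuli, Ms4a7, which was not called against Ctrl in any group, and Ly6c2, the one Ly6 member with a called rise and an entry, are as follows, each 5′ to 3′ on its own strand.
Ms4a4c, chr19:11407411-11407660: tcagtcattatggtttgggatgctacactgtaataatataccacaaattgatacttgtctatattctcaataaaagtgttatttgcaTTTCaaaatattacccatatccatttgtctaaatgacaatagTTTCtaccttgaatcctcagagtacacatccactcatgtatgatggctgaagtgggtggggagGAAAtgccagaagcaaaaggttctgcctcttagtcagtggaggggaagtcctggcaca
Ms4a7, chr19:11336147-11336396: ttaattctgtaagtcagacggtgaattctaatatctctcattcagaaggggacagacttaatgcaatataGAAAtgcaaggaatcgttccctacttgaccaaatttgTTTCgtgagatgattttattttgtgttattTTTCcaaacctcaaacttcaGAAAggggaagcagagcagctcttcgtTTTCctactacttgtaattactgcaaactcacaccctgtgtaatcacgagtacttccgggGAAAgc
Ly6c2, chr15:75111972-75112221: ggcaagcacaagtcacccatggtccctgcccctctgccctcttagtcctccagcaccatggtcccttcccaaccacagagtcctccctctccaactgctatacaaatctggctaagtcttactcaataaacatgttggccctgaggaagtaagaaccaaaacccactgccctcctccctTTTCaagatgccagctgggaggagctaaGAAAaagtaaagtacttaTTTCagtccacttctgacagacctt

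Ms4a6c and Ms4a6b hold a long stretch in common. The run of 48 bases, which begins 49 bases before the start of Ms4a6c and 118 bases before that of Ms4a6b, is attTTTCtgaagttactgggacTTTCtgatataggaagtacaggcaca. Among the 300-base windows of the members (250 bases before the start and 50 after it), none held GAAANNGAAA, GGAANNGAAA or TTCNNNGAA on either strand, nor the NF-kB consensus. These motifs, the first 2 of which can overlap, occur in 3.44%, 2.72%, 8.3% and 8.46% of all 32851 windows. Ms4a6c had 8 occurrences of GAAA or TTTC, Ms4a7 had 7 in the window whose first 250 bases are shown, and the median of all windows was 3. A match or its absence describes these letters and nothing else.

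Depth limits what could be seen. Libraries held 46564 to 610234 UMIs, with a median of 171616.5, and the 3 Ctrl libraries held only 61823 to 89530. Values are given as CPM, the UMIs scaled to a common library size, so the single Ms4a4c UMI in Ctrl replicate 1 stands for 13.9 CPM. The filter on low counts (about 58.3 CPM in enough libraries) kept 4720 genes. It kept 7 of the 10 members: Ly6c2, Ly6e, Ms4a4c, Ms4a6b, Ms4a6c, Ms4a6d and Ms4a7. All 3 Ctrl libraries were over that level for Ly6e, Ms4a6d and Ms4a7, 1 was for Ly6c2 and Ms4a6c, and none was for Ms4a4c and Ms4a6b. Ly6c2, Ms4a4c, Ms4a6b and Ms4a6c, 4 of the 7, therefore entered the test through stimulated groups in which they were high. Counts of calls or passes that include them, against Ctrl or between stimulated groups, describe them and support nothing. Throughout, "called" means a log2 fold change of at least 1 with a p under 0.05 from the quasi-likelihood test of edgeR, adjusted after Benjamini and Hochberg over the 4720 genes.

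The libraries named next stood apart from their own groups in these genes, and each is named again where a result rests on it. These were replicate 3 of PAM + HMW + SeV, replicate 1 of PAM + LPS, replicate 1 of PAM + HMW + Zymosan and replicate 2 of LPS + Zymosan. The defining markers of B cells and T cells were near 0: the summed level of 5 B cell markers was at most 36.8 CPM and that of 5 T cell markers at most 41.5 CPM in any library, and Cd3e had no UMI. Markers of mast cells and basophils reached at most 34.6 CPM. Dendritic cell markers summed to 2670.3 to 4808 CPM, although Cd209a, Flt3 and Zbtb46 had only 3, 95 and 99 UMIs in all. The summed level of the 6 counted monocyte or macrophage markers was high in every library, with medians of 11566 CPM in Ctrl, 8983 in single ligands and 7467 in triplets. Most of it was Lyz2, with medians of 9696, 7546 and 6446 CPM. Fcgr1 went the other way, from a median of 55.4 CPM in Ctrl to 215 with single ligands and 295 in triplets, and Mertk had no UMI in Ctrl and 230 in all. Neutrophil markers ranged from 258 to 669 CPM over all libraries and had a median of 485 CPM in Ctrl. The summed level of the 4 plasmacytoid dendritic cell markers moved with several members: it was 137 to 182 CPM in Ctrl, with medians of 684 CPM in single ligands, 787 in pairs and 859 in triplets. It reached 1057, 1399.7 and 1553 CPM in PAM + LPS and 925, 837 and 1490.0 CPM in PAM + HMW + SeV. Nearly all of this was Bst2 and Tcf4, with 22005 and 4128 UMIs, while Siglech had 35 and Ccr9 had 89. Siglech did not rise: from 2 UMIs its median was 9.6 CPM in Ctrl, and it was 0 in single ligands, pairs and triplets. In bulk RNA, fewer cells of a type and less RNA per cell cannot be told apart, and the part of these cell types in the results was not tested.

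Ms4a6d and Ms4a6c, both on chromosome 19, rose with 6 of the 7 single ligands, of which the calls with HMW did not hold with RLE factors or with some libraries left out. Ms4a6d was at 139, 74.8 and 125 CPM in Ctrl. It was at 1347, 1175 and 1230.5 CPM with LPS and at 1359, 1133 and 1171 CPM with CpGB. PAM gave 938, 839.6 and 828 CPM, SeV 640, 774 and 685 CPM, and cGAMP 541, 520.0 and 485 CPM. No library of these 5 groups overlapped Ctrl.
The log2 fold changes against Ctrl were 3.46 ± 0.22 (SE) for LPS, 3.41 ± 0.22 for CpGB, 2.93 ± 0.23 for PAM, 2.62 ± 0.24 for SeV and 2.18 ± 0.25 for cGAMP, with 3 libraries in each group. Their largest adjusted p was 4.6e-14, for cGAMP. HMW raised Ms4a6d to 266, 233 and 199.8 CPM (log2 fold change 1.01 ± 0.28, adjusted p = 0.0336). That call was lost without Ctrl replicate 2 or 3 (adjusted p = 0.271 and 0.125) and without HMW replicate 1 or 2 (adjusted p = 0.0704 and 0.131). It was also lost with RLE factors (0.94, adjusted p = 0.0741), library size alone (0.98) and DESeq2 (0.94, adjusted p = 0.0619). Zymosan gave 202, 243 and 224 CPM, all above Ctrl, with a log2 fold change of 0.99 ± 0.29 and an adjusted p of 0.0121, just short of the fold that a call needs. Without Ctrl replicate 1 or 3, or Zymosan replicate 1, it was called (1.14, 1.09 and 1.04).

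Ms4a6c responded to the same 6 ligands at a lower count. Ctrl was at 27.7, 49.9 and 57.6 CPM, from 12 UMIs in all. LPS raised it to 774, 709 and 622 CPM, a log2 fold change of 3.88 ± 0.33 (SE, n = 3 libraries a group, adjusted p = 1.5e-22 by edgeR). CpGB gave 679, 628 and 618 CPM, SeV 487, 429 and 399 CPM, PAM 505, 342 and 406 CPM, and cGAMP 358, 362 and 331 CPM. With HMW it was at 183, 179 and 83.7 CPM, still above every Ctrl library (log2 fold change 1.61 ± 0.44, adjusted p = 0.0336). Without any 1 of the Ctrl libraries 1, 2 or 3 the HMW call was lost (adjusted p = 0.201, 0.0878 and 0.121), as it was without HMW replicate 1 or 2 (0.0750 and 0.330) and with RLE factors (0.0624). With Zymosan it was at 92.0, 141 and 56.0 CPM, which overlapped Ctrl, and did not pass (adjusted p = 0.250).

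Ms4a4c rose with 4 ligands, LPS, CpGB, SeV and cGAMP. Its Ctrl libraries held 1, 2 and 2 UMIs, or 13.9, 24.9 and 19.2 CPM. LPS gave 506, 399 and 429.5 CPM (log2 fold change 4.45 ± 0.58, adjusted p = 1.6e-11 by edgeR). CpGB gave 262, 204 and 516 CPM, SeV 315, 276 and 352 CPM, and cGAMP 238, 309.7 and 166 CPM, with log2 fold changes of 4.08, 3.98 and 3.57. Without replicate 3 of CpGB, its highest library, the first of these was 3.49. PAM, at 45.9, 45.2 and 55.6 CPM, and HMW, at 41.6, 58.3 and 46.5 CPM, lay above every Ctrl library without passing the test (adjusted p = 0.391 and 0.745). Zymosan, at 27.6, 12.8 and 28.0 CPM, overlapped Ctrl. Between cGAMP and PAM, neighbours in its order of levels, the log2 difference was 2.27 ± 0.44 (adjusted p = 4.5e-06).

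Ms4a6b, a close relative of Ms4a6c, was scarce: 1 UMI in the 3 Ctrl libraries together. SeV gave 47.8, 53.7 and 51.6 CPM from 23 UMIs, and CpGB gave 48.5, 66.4 and 59.9 CPM from 31 UMIs. No library of either group overlapped Ctrl, which was at 0, 12.5 and 0 CPM. The ratio of summed counts to Ctrl, per scaled depth, was 13.2 for SeV (exact 95% interval 2.14 to 542) and 15.4 for CpGB (2.57 to 628). These intervals cover counting error only. Both were called by edgeR (adjusted p = 0.0199 and 0.00687). Neither call held without Ctrl replicate 3 (adjusted p = 0.130 and 0.0733), and that of SeV was also lost without Ctrl replicate 1 (0.0665). The other 5 ligands did not pass, and all 11 UMIs of the HMW group were in its replicate 2.

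Ms4a7, which lies at one end of the same cluster, was not called against Ctrl with any single ligand. Ctrl was at 111, 74.8 and 154 CPM, and the means of the 7 single ligands ran from 97.3 CPM with SeV to 174 CPM with CpGB. None of its 7 log2 fold changes, from -0.25 to 0.57, passed the test. The highest, 0.57 ± 0.31 for cGAMP, had all 3 libraries (174, 164 and 184 CPM) above Ctrl and an adjusted p of 0.186. With SEs of 0.31 to 0.35 at this depth, small changes of Ms4a7 were not detectable.

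The Ly6 members with enough counts, Ly6c2 and Ly6e, split the ligands in different ways. Ly6c2 was at 0, 24.9 and 67.2 CPM in Ctrl, from 9 UMIs. LPS gave 149, 205 and 188 CPM, CpGB 126, 168 and 235 CPM, and PAM 190.3, 126 and 161 CPM, with log2 fold changes of 2.37 ± 0.55, 2.38 ± 0.55 and 2.14 ± 0.57 (edgeR adjusted p = 0.000203, 0.000255 and 0.00214). All of these 9 libraries were above the 3 Ctrl libraries. SeV, at 86.0, 76.6 and 117 CPM, was also above them but did not pass (log2 fold change 1.46 ± 0.63, adjusted p = 0.0965). Zymosan, HMW and cGAMP each had at least 1 library within the range of Ctrl and did not pass. Ctrl replicate 1 had no Ly6c2 UMI and Ctrl replicate 3 had 7, so each of these folds leans on how that group is averaged. Without Ctrl replicate 3 the log2 fold changes were 3.73 for LPS, 3.75 for CpGB and 3.51 for PAM, and SeV was called (2.82, adjusted p = 0.0357).

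Ly6e was abundant without stimulus, at 734, 474 and 595 CPM, and was the best counted of the 10 genes with 37840 UMIs over all libraries. SeV raised it to 1768, 1640.2 and 2007 CPM, cGAMP to 1605, 1548 and 1424 CPM, CpGB to 1058, 1424 and 1738 CPM, and LPS to 1280.4, 1247 and 1436 CPM. No library of these 4 groups overlapped Ctrl. The log2 fold changes were 1.60 ± 0.24, 1.35 ± 0.24, 1.26 ± 0.24 and 1.15 ± 0.24, with adjusted p of 7.3e-09, 1.8e-06, 6.7e-06 and 4.0e-05. HMW gave 906, 1117 and 846 CPM, all above Ctrl, without passing (0.68 ± 0.25, adjusted p = 0.234). PAM, which raised Ly6c2, gave 381, 432 and 506 CPM, a log2 fold change of -0.44 ± 0.27 that did not pass (adjusted p = 0.317), and Zymosan gave 525, 723 and 513 CPM.

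**Figure D1:**
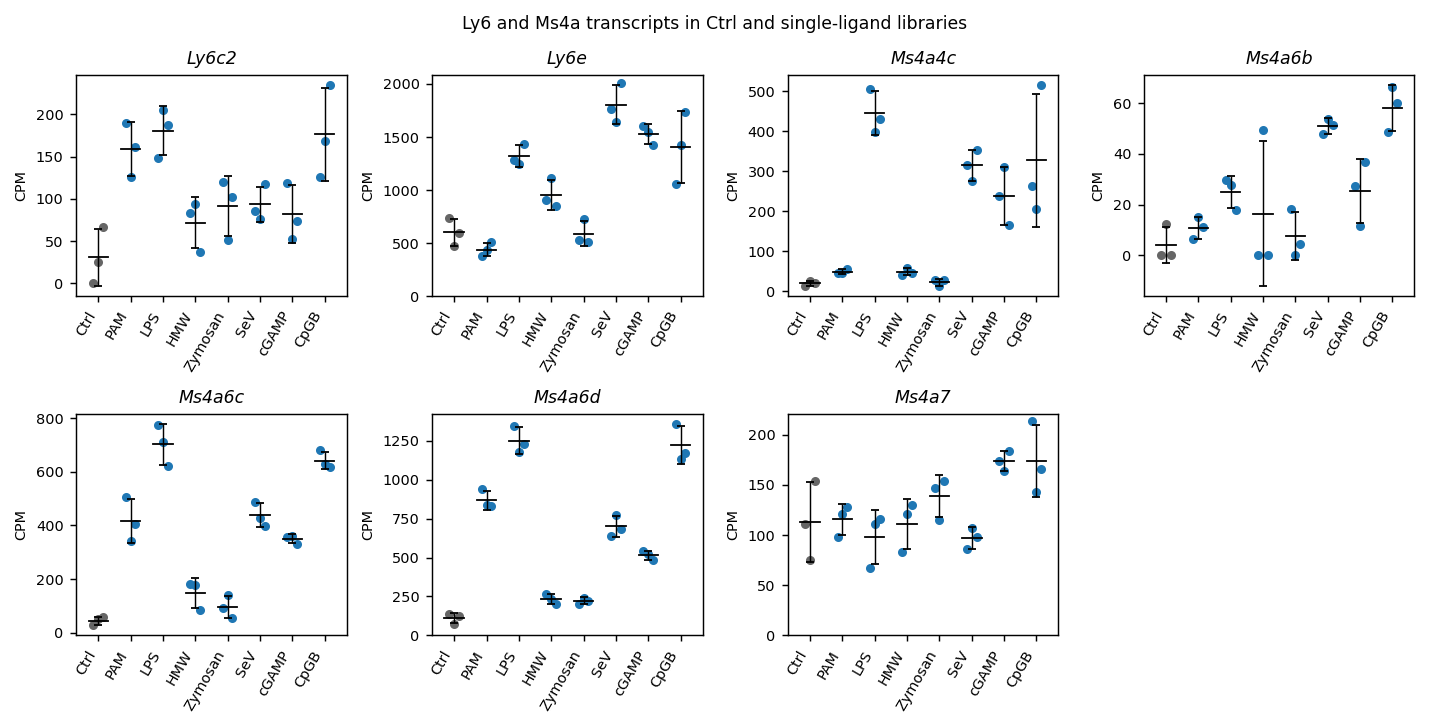
CPM of the 7 tested members in each of the 3 libraries (points) and their mean (horizontal bar) in Ctrl and the 7 single-ligand groups, with the SD over the libraries as error bars, 1 panel a gene, each with its own linear axis. Ms4a6c and Ms4a6d were high with LPS and CpGB and lowest with Zymosan and HMW among the ligands. Ms4a4c was low with PAM, HMW and Zymosan, Ly6e was low with PAM and Zymosan, and Ms4a7 stayed between 67.0 and 213 CPM.

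Counted over the 7 tested members, CpGB raised 6, LPS and SeV 5 each, cGAMP 4, PAM 3, HMW 2 and Zymosan 0, and none was called lower. Over all 4720 genes the share called higher was 10.8% for CpGB, 14.6% for LPS, 10.5% for SeV, 11.7% for cGAMP, 8.01% for PAM, 0.953% for HMW and 4.43% for Zymosan. The share called in either direction was 17.0%, 24.2%, 15.6%, 17.6%, 13.9%, 0.975% and 6.25%, and that called lower 6.27%, 9.60%, 5.13%, 5.91%, 5.89%, 0.0212% and 1.82%. The median log2 fold change of the 7 members was 3.41 for CpGB, 2.43 for LPS, 2.62 for SeV, 2.18 for cGAMP, 1.37 for PAM, 1.01 for HMW and 0.60 for Zymosan, against medians of all genes between -0.09 and 0.03. Because 4 of the 7 were tested only through their high groups, these counts describe the members. The 2 calls with HMW fell to 0 without Ctrl replicate 2, Ctrl replicate 3, HMW replicate 1 or HMW replicate 2 and to 1 without Ctrl replicate 1. All 7 comparisons share the same Ctrl libraries. Of all genes called, 57.6% to 70.8% were higher for the 6 ligands other than HMW. With RLE factors this share was 47.8% to 58.4% and with library size alone 41.4% to 54.6%, and the median change over all genes moved by -0.16 and -0.36 on the log2 scale.

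The order of the single ligands differed between members. Of the 21 contrasts between ligands, 17 passed for Ms4a6d, 16 for Ms4a6c, 13 each for Ms4a4c and Ly6e, 8 for Ly6c2, 4 for Ms4a6b and 2 for Ms4a7 (adjusted p under 0.05, no fold threshold), against 18.8% of all gene and pair tests. For Ms4a6d, LPS and CpGB did not differ (0.04 ± 0.13, adjusted p = 0.913), CpGB exceeded PAM by 0.48 ± 0.13 (adjusted p = 0.00762) and cGAMP exceeded HMW by 1.16 ± 0.18 (adjusted p = 2.1e-08). PAM and SeV, and SeV and cGAMP, which come between them, did not differ beyond their spread. For Ms4a6c the steps from CpGB to SeV (0.56 ± 0.19, adjusted p = 0.0257) and from cGAMP to HMW (1.28 ± 0.24, adjusted p = 7.6e-06) passed. For Ly6e, SeV, cGAMP, CpGB and LPS came in that order with no step that passed, and HMW exceeded Zymosan by 0.71 ± 0.23 (adjusted p = 0.0254). No step between neighbours passed for Ly6c2 or Ms4a6b.

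Lists of other genes of the pathway show what else the same libraries held. All 15 interferon-response genes (Ifit1, Isg15, Rsad2, Mx1 and others) were called higher with LPS, SeV, cGAMP and CpGB, with medians of 3.87, 3.83, 4.22 and 2.51. Only 5 were with HMW, 2 with PAM and none with Zymosan, with medians of 1.04, 0.55 and 0.68. Among the genes of the interferon receptor and its factors, Stat2 was called higher with all 7 ligands. Irf9, the DNA-binding part of the complex that the receptor activates, was called with LPS, SeV, cGAMP, CpGB and PAM, and the receptor genes Ifnar1 and Ifnar2 with none. Of the 13 tested inflammatory genes, 12 were higher with CpGB, 11 with PAM, 10 with LPS, 8 with Zymosan, 4 with cGAMP, 1 with SeV and none with HMW.

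Set beside those lists, the 4 ligands that raised Ms4a4c and Ly6e were the 4 with which all 15 interferon-response genes rose. PAM raised 11 inflammatory genes, 2 interferon-response genes, Ms4a6c, Ms4a6d and Ly6c2, and was not called for Ms4a4c or Ly6e. SeV raised 1 inflammatory gene and 5 members. Zymosan raised 8 inflammatory genes and none of the members. Over all genes 8.01% were called higher with PAM, 10.5% with SeV and 4.43% with Zymosan, so no call among 7 members with Zymosan is near that share.

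In combination Ms4a6c, Ms4a6d and Ms4a4c rose in nearly every group, and the other members in fewer. Ms4a6c and Ms4a6d were called higher than Ctrl in all 21 pairs and all 35 triplets. Ms4a4c was called in 20 pairs and 34 triplets, the exceptions being PAM + Zymosan and PAM + Zymosan + CpGB. Ly6c2 was called in 16 pairs and 28 triplets, and Ly6e in 10 pairs and 11 triplets. Ms4a6b was called in 4 pairs and 2 triplets, and Ms4a7 in none. No tested member was called lower in any of them. The Ly6e call with LPS + Zymosan, at 983, 2205 and 1116 CPM (1.28), was lost without its replicate 2 (0.81), and so was that of Ly6c2 there (1.76, and 1.43 with an adjusted p of 0.0978 without it). Without Ctrl replicate 3 instead, the log2 fold change of Ly6c2 with LPS + Zymosan was 3.12 and still called. Over all genes, 13.7% of the tests of pairs and 15.7% of those of triplets were called higher, and 8.44% and 10.2% lower.

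More ligands did not mean higher levels of Ly6e. Its median log2 fold change against Ctrl was 1.15 over single ligands, 0.98 over pairs and 0.82 over triplets, and the median of group means went from 1321 to 1171 and 1047 CPM. Ms4a6d went the other way, from a median log2 fold change of 2.62 over single ligands to 3.19 over pairs and 3.30 over triplets. For Ms4a4c the 3 medians were 3.57, 3.93 and 4.19, and for Ms4a6c 3.12, 3.48 and 3.38. These medians were not tested against each other, since the groups share ligands.

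Ranked by mean CPM over the 64 groups, PAM + LPS and PAM + HMW + SeV took the first and second places, in either order, for Ly6c2, Ly6e, Ms4a4c, Ms4a6b and Ms4a6d. The place of PAM + HMW + SeV rested on its replicate 3. Without that library its mean fell from 684 to 308 CPM for Ly6c2, where it went from the first place to the second, and from 1409 to 1281 CPM for Ms4a6d, where it came to place 6. It came to place 24 for Ly6e (from 2043 to 1199 CPM), 16 for Ms4a4c (from 769 to 423 CPM) and 49 for Ms4a6b (from 77.8 to 14.4 CPM), and PAM + LPS was first for all 5 genes. In the ranking with every library, the third place went to PAM + SeV for Ly6c2 and Ms4a6d, SeV for Ly6e, LPS + SeV for Ms4a4c and CpGB for Ms4a6b. LPS + CpGB came first for Ms4a6c (946, 816 and 780.4 CPM), followed by PAM + LPS (775, 865 and 897 CPM) and LPS + HMW + CpGB. SeV + CpGB came first for Ms4a7 (246, 173 and 211 CPM), followed by Zymosan + SeV and HMW + Zymosan + SeV. At the low end, Ctrl came last for Ly6c2, Ms4a4c, Ms4a6b, Ms4a6c and Ms4a6d. The next lowest were HMW and PAM + Zymosan for Ly6c2, Zymosan and PAM + Zymosan for Ms4a4c, Zymosan and HMW for Ms4a6c and Ms4a6d, and PAM + cGAMP and LPS + HMW + cGAMP for Ms4a6b. The lowest for Ms4a7 were SeV, LPS and LPS + CpGB. For Ly6e the lowest was PAM + Zymosan (326, 412 and 339.6 CPM), below every Ctrl library, then PAM and Zymosan. The log2 fold change of PAM + Zymosan for Ly6e was -0.73 ± 0.29 and did not pass (adjusted p = 0.0695).

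**Figure D2:**
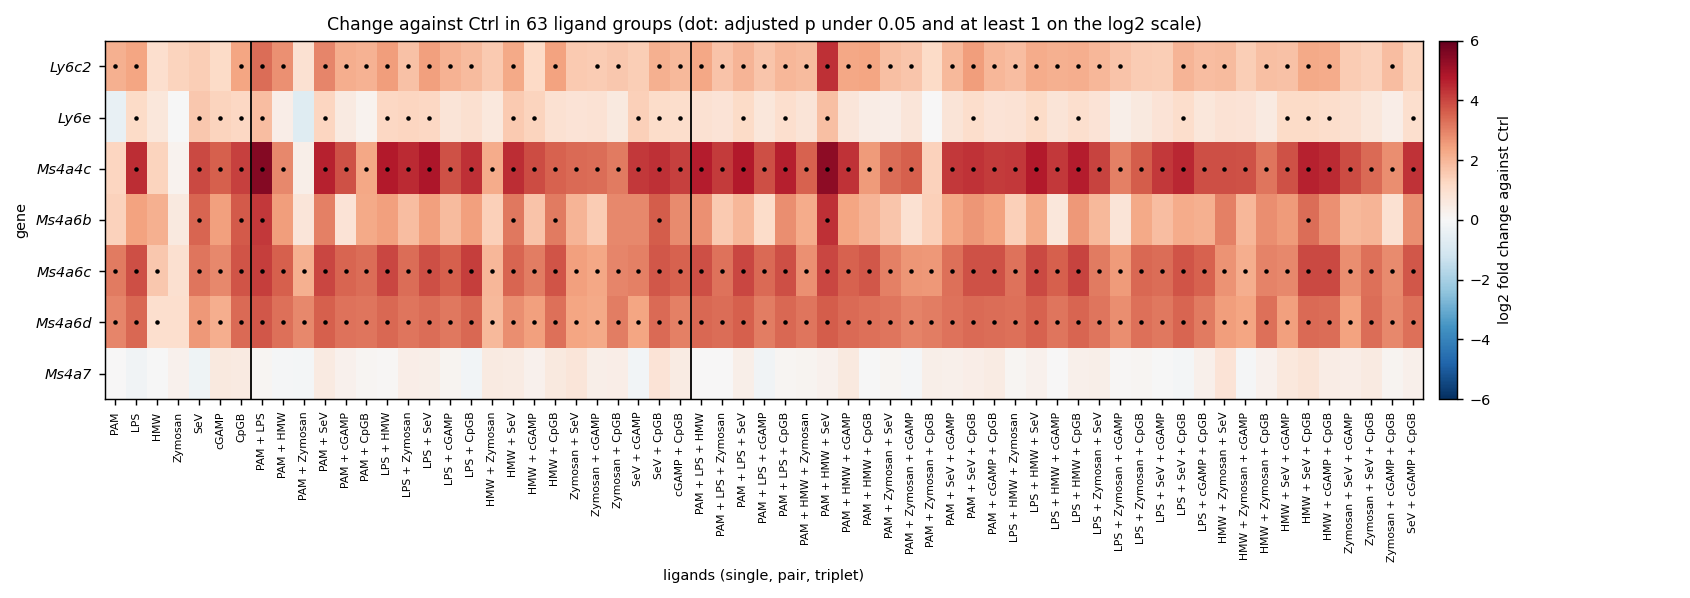
Log2 fold change against Ctrl of the 7 tested members (rows) in all 63 stimulated groups (columns, ordered as single ligands, pairs and triplets), by colour from blue (lower) to red (higher), with a dot on each call. Ms4a6c, Ms4a6d and Ms4a4c were raised in nearly all columns, Ly6e in fewer, and Ms4a7 in none.

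PAM + LPS was the pair in which most members exceeded both of its single ligands: 2 of the 7 were called, against 0.805% of all genes in that pair, and 4 passed with no fold threshold, against 2.37%. Of these 4, all but Ly6e entered the test only through stimulated groups in which they were high. Ms4a6b was over the filter level in only 7 of the 192 libraries. These counts therefore describe the members and support nothing. Ms4a4c was at 656, 1009.7 and 1035 CPM, 1.07 above LPS and 4.22 above PAM on the log2 scale (adjusted p = 0.000852 for the weaker of both comparisons, by edgeR). Ms4a6b, at 9.1, 139 and 85.1 CPM, was called above both as well (adjusted p = 0.0494), although its replicate 1 overlapped LPS. Ly6c2 (173, 379 and 447 CPM) and Ly6e (875, 2586 and 2740.4 CPM) passed for both comparisons without reaching a log2 difference of 1 over LPS (0.96 and 0.69). Replicate 1 of PAM + LPS was the lowest of the 3 for all 4 of these genes, and its summed level of the 15 interferon-response genes, 40056 CPM, was below the 56999 and 58126 CPM of the other libraries. Without it Ly6c2 (1.18), Ly6e (1.01), Ms4a4c (1.21) and Ms4a6b (2.13) were all called above both single ligands. Without replicate 2 or replicate 3 instead, none of the 4 was called. Ms4a4c still passed then without the fold (1.00 and 0.95, adjusted p = 0.0122 and 0.0350), while Ms4a6b (adjusted p = 0.611 and 0.210), Ly6c2 (0.148 and 0.617) and Ly6e (0.321 and 0.619) did not pass. The Ms4a6b call was also lost with RLE factors (adjusted p = 0.0753), library size alone (0.128) and DESeq2 (0.316), and that of Ms4a4c with library size alone (0.88, short of the fold) and DESeq2 (0.97, adjusted p = 0.0960). The part of the interferon-response level in these differences was not tested.

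The only other call above both single ligands was Ms4a4c with PAM + HMW, at 154, 157 and 141 CPM against 45.9, 45.2 and 55.6 with PAM and 41.6, 58.3 and 46.5 with HMW (adjusted p = 0.0322). That call was lost with library size alone (adjusted p = 0.139), and with replicate number 1, 2 or 3 left out of every group (0.0732, 0.160 and 0.0886). That makes 3 calls in 147 tests of members and pairs, where 0.353% of all gene and pair tests were called. They became 5 without replicate 1 of PAM + LPS and 1 without its replicate 2 or 3. With no fold threshold 8 passed, against 0.805% of all: the 4 of PAM + LPS, Ms4a4c with PAM + HMW, Ms4a6c and Ms4a6d with PAM + SeV, and Ms4a6d with HMW + Zymosan. Ms4a6d with HMW + Zymosan was at 356, 389.5 and 533 CPM, 0.93 above HMW and 0.96 above Zymosan (adjusted p = 0.000165). None was below both single ligands, with or without the fold threshold (0.0504% and 0.0999% of all tests). All 3 calls above both were of Ms4a4c and Ms4a6b, which were tested only through stimulated groups in which they were high. These counts therefore describe the members and support nothing.

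**Figure D3:**
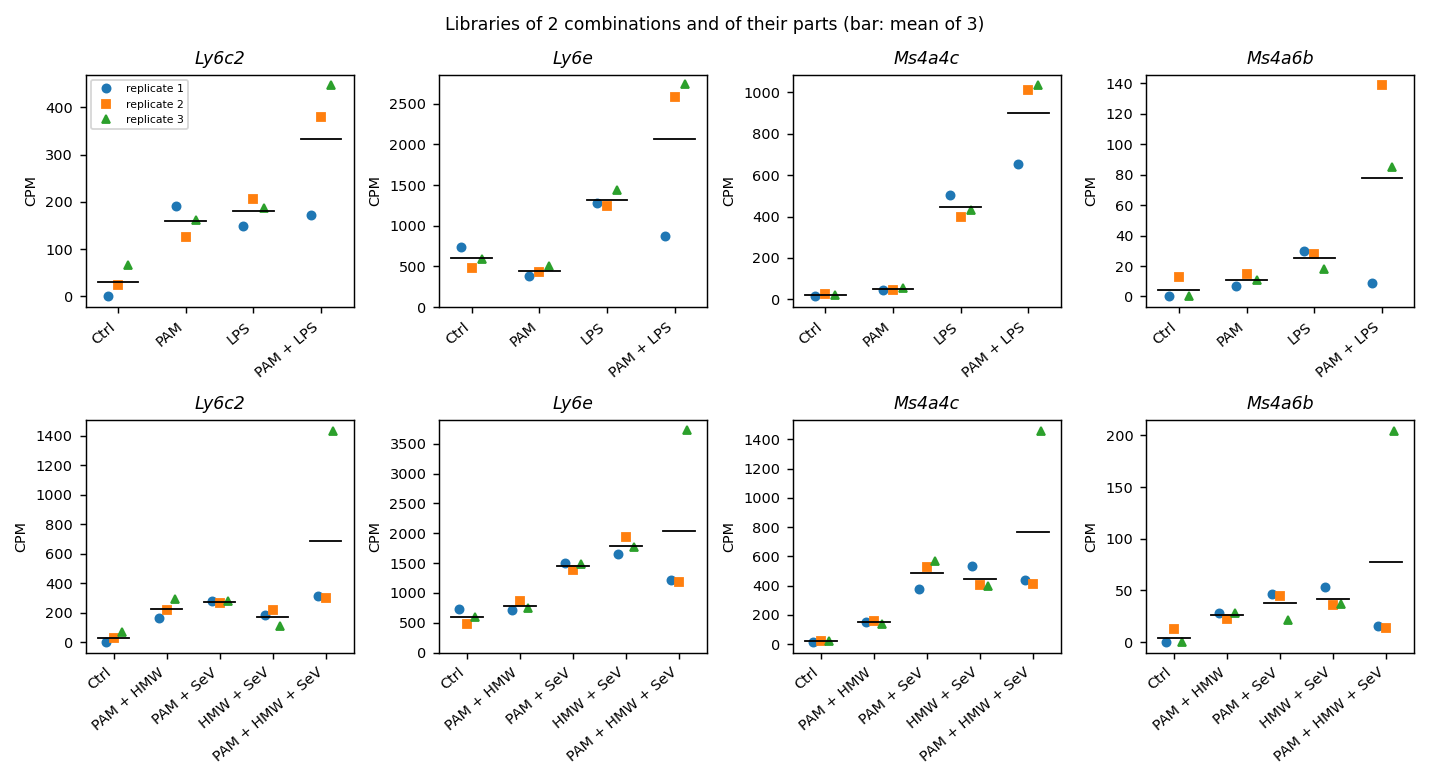
CPM in each library (points) and group mean (bar) of 4 members in PAM + LPS beside Ctrl and both single ligands (top) and in PAM + HMW + SeV beside Ctrl and its pairs (bottom), with a marker for each replicate number. The 3 libraries of PAM + LPS and of PAM + HMW + SeV spread widely for Ly6c2 and Ly6e, with 1 library of each group far from the other 2.

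Among the members, the departures from adding up that passed were negative but for 1. The interaction of a pair is its log2 fold change minus those of both ligands, so 0 means that the log2 effects add up. Of 147 such tests on members, 43 passed as negative and 1 as positive (adjusted p under 0.05, no fold threshold), against 3.50% and 1.08% of all tests. All 147 use the same 3 Ctrl libraries. Ly6c2, Ms4a4c, Ms4a6b and Ms4a6c were tested only through stimulated groups in which they were high, so the counts of interactions, here and for 3 ligands, describe the members and support nothing. Ms4a6d had 15 of the negative ones, Ms4a6c 12, Ms4a4c 7, Ly6e 6 and Ly6c2 3. The largest for Ms4a6c was PAM + CpGB, -3.52 ± 0.42 (adjusted p = 9.6e-13), where the pair, at 419.8, 548 and 472 CPM, lay between PAM and CpGB. The largest for Ms4a6d was LPS + CpGB, -3.42 ± 0.26 (adjusted p = 5.1e-26), where the pair, at 1291, 1162 and 1265 CPM, overlapped both single ligands. A gene that rises strongly with each ligand and no further with both has such a value. The one positive interaction was Ly6e with PAM + LPS, 1.13 ± 0.33 (adjusted p = 0.0139). It did not pass without Ctrl replicate 1 (0.91, adjusted p = 0.112) or PAM + LPS replicate 2 or 3 (0.97 and 0.88, adjusted p = 0.0628 and 0.110).

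Interactions of 3 ligands (what is left of a triplet once the effects of its 3 ligands and its 3 pair interactions are taken off) passed 28 times for the members, all positive, of 245 tests, against 0.803% positive of all. Ms4a6d had 11, Ms4a6c 9, and Ms4a4c and Ly6e 4 each, in both of the latter for the 4 triplets of LPS, SeV, cGAMP and CpGB. They do not mark a level above the pairs. For Ly6e with LPS + SeV + CpGB, the interaction was 1.76 ± 0.43 (adjusted p = 0.00277) and the triplet, at a mean of 1228 CPM, differed from its pairs by -0.20 to 0.07. A single member exceeded all 3 pairs of a triplet, against 0.0115% of all tests: Ly6c2 with PAM + HMW + SeV (by 1.43 to 2.11).

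That last result rests on 1 library. Ly6c2 was at 314, 303 and 1435 CPM in PAM + HMW + SeV, and at 282, 263 and 280.4 CPM in PAM + SeV. Replicate 3 was also the highest of the group for Ly6e (1218, 1180.1 and 3731 CPM), Ms4a4c (437, 409.7 and 1459.6 CPM), Ms4a6b (15.4, 13.4 and 204 CPM) and Ms4a6c (684, 632 and 941 CPM). Its Ms4a7 level, 146 CPM, was close to the 129 and 138 CPM of the others. It held 610234 UMIs, the most of all 192 libraries, and its summed interferon-response level was 54909 CPM against 44868 and 45357. Without that library Ly6c2 exceeded its pairs by 0.17 at the least (adjusted p = 1), and no member exceeded all 3 pairs of this triplet. The log2 fold changes against Ctrl fell from 4.38 to 3.11 for Ly6c2, from 1.82 to 1.00 for Ly6e, from 5.35 to 4.39 for Ms4a4c and from 4.40 to 1.70 for Ms4a6b, of which that of Ms4a6b was no longer called (adjusted p = 0.389). The part of depth and of the interferon-response level was not tested. Leaving out 1 of the lower libraries could add a call: Ms4a4c exceeded all 3 pairs in PAM + HMW + SeV without its replicate 2 (1.02) and in PAM + HMW + Zymosan without that group's replicate 2 (1.11).

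Zymosan lowered 5 of the 7 tested members on average. Averaged over the 22 backgrounds to which it was added (Ctrl, the 6 other ligands and their 15 pairs), it changed Ms4a6c by -0.63 ± 0.06 (adjusted p = 4.4e-22), Ms4a4c by -0.50 ± 0.10, Ly6c2 by -0.39 ± 0.09, Ly6e by -0.38 ± 0.05 and Ms4a6b by -0.78 ± 0.23 on the log2 scale. These members passed as negative, against 20.4% of all genes, and none was positive. All of them but Ly6e entered the test only through stimulated groups in which they were high, so this count describes them and supports nothing. Of the 22 estimates, 20 were below 0 for Ms4a6c, 19 for Ly6e, 19 for Ms4a6b, 18 for Ms4a4c and 16 for Ly6c2. Taken one at a time few were called lower: 3 for Ms4a6c, 1 for Ly6e, 1 for Ms4a6b, 3 for Ms4a4c and 2 for Ly6c2. Ms4a6d hardly moved (-0.07 ± 0.03, adjusted p = 0.0859), nor did Ms4a7 (0.06 ± 0.06). None of these means reached a log2 change of 1, as 2.69% of all genes did with Zymosan. The Ms4a6b mean did not pass without Ctrl replicate 2 (-0.65, adjusted p = 1), which holds the only Ctrl UMI of that gene.

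The steps that Zymosan took on single backgrounds are plain in the libraries. Ms4a6c fell from 505, 342 and 406 CPM with PAM to 211, 206 and 199.8 CPM with PAM + Zymosan (-1.01 ± 0.23, adjusted p = 0.000727). It fell from 733, 803 and 757 CPM with PAM + SeV to 463, 354 and 324 CPM with the triplet (-1.02 ± 0.19), and from 726, 429 and 578 CPM with LPS + cGAMP to 275, 291 and 263 CPM (-1.05 ± 0.21). None of these groups overlapped. Each of the 3 calls was lost with at least 1 replicate number left out of every group, when the steps were -0.88 on PAM (number 1), -0.92 and -0.87 on PAM + SeV (numbers 2 and 3) and -0.87 and -0.96 on LPS + cGAMP (numbers 1 and 3). That on PAM + SeV was also -0.95 with library size alone and -0.98 with no filter. In the same PAM and PAM + Zymosan libraries Ms4a6d stayed at 938, 839.6 and 828 against 853, 891 and 764 CPM. Ms4a4c fell with Zymosan on PAM + LPS, PAM + SeV and cGAMP + CpGB (-1.32, -1.26 and -1.28), and Ly6c2 on PAM + LPS and PAM + SeV (-1.59 and -1.13). Of these 5 calls, that of Ms4a4c on PAM + LPS held with each replicate number left out, and the other 4 were each lost without 1 number or more. Over the 22 backgrounds taken one at a time, 0.897% of all tests were called lower with Zymosan and 2.51% higher.

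PAM lowered Ms4a4c on CpGB and on Zymosan + CpGB, and Ly6e on CpGB, where 0.678% and 0.869% of all genes were called lower on the 2 backgrounds. Ms4a4c was at 262, 204 and 516 CPM with CpGB and at 95.4, 111 and 88.0 CPM with PAM + CpGB, a log2 difference of -1.78 ± 0.38 (edgeR adjusted p = 0.000778). The same step on Zymosan + CpGB, from 235, 149 and 155 to 69.1, 41.5 and 49.2 CPM, was -1.73 ± 0.45 (adjusted p = 0.0136). Ly6e went from 1058, 1424 and 1738 CPM to 849, 548 and 728 CPM (-1.03 ± 0.22, adjusted p = 0.000833). With replicate number 3 left out of every group, the Ms4a4c steps did not pass (-1.17, adjusted p = 0.320, and -1.81, adjusted p = 0.0587) and that of Ly6e fell short of the fold (-0.93), as it did without number 2 (-0.93). On the other backgrounds that hold CpGB, PAM did not pass for either gene. Ms4a4c changed by -0.97 on HMW + CpGB (adjusted p = 0.134), -0.05 on SeV + CpGB, 0.11 on cGAMP + CpGB and 0.27 on LPS + CpGB. Ly6e changed by -0.58 on Zymosan + CpGB (adjusted p = 0.190), -0.46 on HMW + CpGB (adjusted p = 0.376), -0.24 on cGAMP + CpGB, -0.01 on SeV + CpGB and 0.05 on LPS + CpGB. The mean over the 22 backgrounds for Ly6e was -0.30 ± 0.05 with PAM, with 18 of 22 estimates below 0 and 1, that on CpGB, called lower. Short of the fold, PAM also passed as lower for Ly6e on cGAMP (-0.80), SeV + cGAMP (-0.67) and HMW + cGAMP (-0.60), and as higher on LPS (0.69). Ly6c2, Ms4a6c and Ms4a6d instead moved up with PAM on average, by 0.45 ± 0.08, 0.45 ± 0.05 and 0.70 ± 0.03.

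PAM raised Ms4a4c on 3 backgrounds. It went from 445 to 900 CPM in the mean on LPS (1.07 ± 0.23, adjusted p = 0.000685) and from 48.8 to 151 CPM on HMW (1.57 ± 0.44, adjusted p = 0.00373), where 1.38% and 8.52% of all genes were called higher. The step on LPS fell short of the fold without replicate 2 or 3 of PAM + LPS (1.00 and 0.95) and was lost with library size alone (0.88) and DESeq2 (0.97, adjusted p = 0.0578). On HMW + Zymosan the mean went from 91.6 to 242 CPM (1.30 ± 0.34, adjusted p = 0.00356), where 3.83% of all genes were called higher. That step rests on replicate 1 of PAM + HMW + Zymosan, without which it was 0.00. The mean over the 22 backgrounds, 0.15 ± 0.09, did not pass. The change ran from -1.78 on CpGB to 1.57 on HMW.

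LPS and SeV added most to Ms4a4c. Its mean change over the 22 backgrounds was 1.39 ± 0.08 with LPS (adjusted p = 1.4e-44) and 1.18 ± 0.08 with SeV (adjusted p = 7.8e-35). No other mean effect on a tested member reached a log2 change of 1, where 7.58% of all genes did with LPS and 1.57% with SeV. The Ms4a4c step was above 0 on 19 of the 22 backgrounds with LPS and on 18 with SeV, and it was called on 9 with each. The share of all genes called on single backgrounds was not counted for LPS and SeV, so these counts describe Ms4a4c only. With SeV all 7 members passed as positive, against 20.6% of all genes, from 0.15 ± 0.06 for Ms4a7 to the 1.18 of Ms4a4c. Of these, Ly6c2 did not pass without replicate 3 of PAM + HMW + SeV (0.16, adjusted p = 0.0656), nor Ms4a7 without replicate 3 of PAM + LPS (0.13, adjusted p = 0.0518). LPS was positive for 5 and negative for Ms4a7 (-0.18 ± 0.06). PAM was positive for 3 members and negative for Ly6e, HMW positive for 4 and CpGB positive for 4. cGAMP was positive for Ms4a4c, Ms4a6c and Ms4a6d and negative for Ly6c2 and Ms4a6b, but with library size alone as the scaling the changes of Ms4a6c and Ms4a6d, 0.11 each, became -0.03. Without Ctrl replicate 3 the cGAMP effect on Ly6c2 did not pass (-0.14, adjusted p = 0.266), nor did that on Ms4a6b without Ctrl replicate 2 (-0.36, adjusted p = 0.993) or that on Ms4a6c without Ctrl replicate 1 (0.10, adjusted p = 0.0780). Shares of all genes that passed as positive were 21.2% for PAM, 29.6% for LPS, 7.94% for HMW, 28.2% for cGAMP and 19.0% for CpGB, and negative shares 18.7%, 29.3%, 2.10%, 29.7% and 17.7%. Because 4 of the 7 members were tested only through their high groups, these counts of members, that for SeV included, describe them and support nothing.

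**Figure D4:**
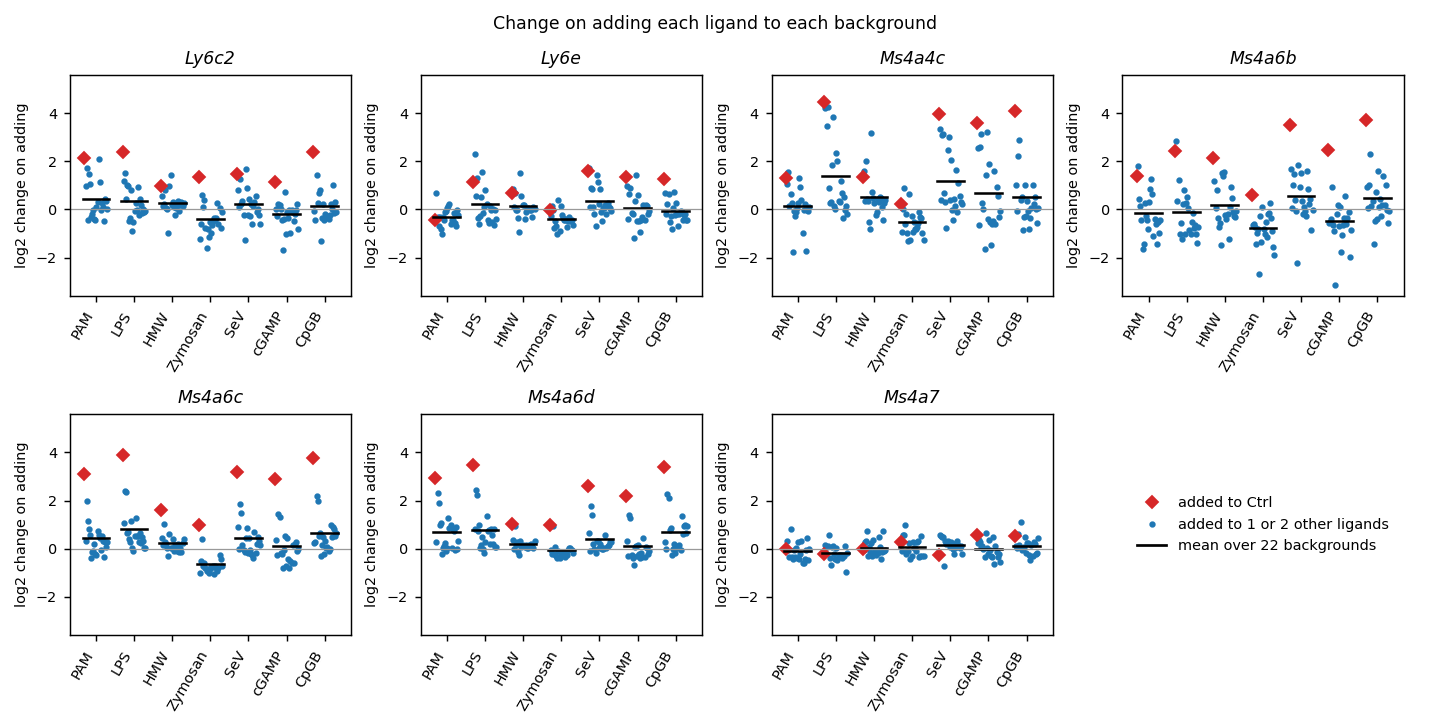
Log2 change on adding each ligand (horizontal axis) to Ctrl (diamonds) and to 1 or 2 other ligands (points), 1 panel for each tested member, with the mean over the 22 backgrounds as a bar. With Zymosan most points of Ms4a6c, Ms4a4c, Ms4a6b, Ly6e and Ly6c2 lie below 0 and those of Ms4a6d lie near 0.

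Zymosan and cGAMP on top of PAM + LPS also lowered 4 members each, where 0.763% and 1.57% of all genes were called lower. With Zymosan and with cGAMP, Ly6c2 changed by -1.59 and -1.68, Ly6e by -1.02 and -1.17, Ms4a4c by -1.32 and -1.65 and Ms4a6b by -2.67 and -3.14, all called. PAM + LPS ranked first or second of the 64 groups for each of these genes. All of them but Ly6e were tested only through stimulated groups in which they were high. That choice favours a fall from PAM + LPS, so these counts describe the members and support nothing. The Ly6c2 and Ms4a4c libraries of the triplets were all below those of PAM + LPS, while those of Ly6e and Ms4a6b overlapped it through its low replicate 1. Without that replicate the 4 genes changed by -1.81, -1.34, -1.47 and -3.02 with Zymosan and by -1.90, -1.49, -1.80 and -3.48 with cGAMP, all still called. Without replicate 3 instead, Ly6e fell short of the fold with both ligands (-0.77 and -0.92), and without replicate 2 the Zymosan calls of Ly6e (-0.87) and Ms4a6b (adjusted p = 0.122) were lost. The Zymosan call of Ly6e also fell short of the fold with library size alone (-0.94) and DESeq2 (-0.98). With replicate number 3 left out of every group, the calls of Ly6c2 with Zymosan (adjusted p = 0.0635) and of Ms4a6b with cGAMP (0.0857) were lost. CpGB lowered Ly6c2 (-1.32, adjusted p = 0.00703), its only call there, where 0.212% of all genes were called lower. The Ly6c2 libraries of the triplet, at 115 to 180 CPM, overlapped PAM + LPS through its low replicate 1, and the call was lost without replicate 3 of PAM + LPS (-1.04, adjusted p = 0.290). It passed short of the fold for Ly6e (-0.81) and Ms4a4c (-0.86). HMW and SeV had no call among the members, where 0.0847% and 0.0424% of all genes were called lower. For Ly6c2 they gave -0.98 (adjusted p = 0.0892) and -1.26 (adjusted p = 0.0642), and for Ms4a4c -0.80 (adjusted p = 0.0843) and -0.76 (adjusted p = 0.319). HMW passed short of the fold for Ly6e (-0.92, adjusted p = 0.00651), and SeV did not pass (-0.69, adjusted p = 0.210).

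HMW raised Ms4a4c on PAM, Zymosan and PAM + Zymosan, where 1.67%, 1.84% and 4.83% of all genes were called higher. The change was 1.60 ± 0.45 on PAM (adjusted p = 0.0199) and on Zymosan it went from 27.6, 12.8 and 28.0 to 114, 47.2 and 113 CPM (2.00 ± 0.61, adjusted p = 0.0465). On PAM + Zymosan the change was 3.16 ± 0.51, from 10.5, 7.4 and 44.9 CPM to 540.3, 58.4 and 128 CPM. Replicate 1 of PAM + HMW + Zymosan was far above the other 2 there, and for Ly6e as well (1732, 662 and 724 CPM). Its summed interferon-response level was 30345 CPM, against 9736 and 15821. Without that library the change was 1.86 for Ms4a4c (adjusted p = 0.0348), still called, and 0.94 for Ly6e, down from 1.51 and short of the fold. HMW was not called for Ms4a4c on any of the other 19 backgrounds. These include Ctrl (1.33 ± 0.90, adjusted p = 0.745) and PAM + CpGB, where the mean went from 98.2 to 121 CPM (0.27 ± 0.44, adjusted p = 0.997). With a replicate number left out of every group, the call on PAM was lost without number 2 (adjusted p = 0.114), that on Zymosan without number 1 or 3 (0.0955 and 0.325) and that on PAM + Zymosan without number 1 (0.101).

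For Ms4a7 a single step was called among its changes on the 22 backgrounds of each ligand: CpGB added to SeV, from 86.0, 107 and 98.5 to 246, 173 and 211 CPM (1.09 ± 0.28, adjusted p = 0.0024), where 3.83% of all genes were called higher. It was lost with library size alone (0.96) and with replicate number 1 or 3 left out of every group (adjusted p = 0.0616 and 0.0633). Ctrl, at 74.8 to 154 CPM, overlapped SeV, while all 3 libraries of SeV + CpGB lay above it. Neither group was called against Ctrl.

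Across the 64 group means (log2 CPM, prior count 2), the members fell into looser and tighter pairs, given here as a description since the groups share ligands. Ms4a6c and Ms4a6d had the highest correlation among the members (r = 0.91), Ly6e and Ms4a4c the next (0.84), then Ms4a4c and Ms4a6c (0.79). Ly6e and Ms4a6d were apart (0.30), and Ms4a7 reached at most 0.38 with any member. Over all 4720 genes, the 3 most like Ms4a4c were AW112010, Psmb10 (a subunit of the immunoproteasome) and Mx1 (an antiviral GTPase), with r of 0.955, 0.952 and 0.946. For Ms4a6d they were Cfb (complement factor B), Slco3a1 and Psme2 (0.932, 0.914 and 0.914), and for Ms4a6c they were Ms4a6d, Dram1 and Cfb (0.907, 0.896 and 0.891). For Ly6e they were Fcgr1 (a high-affinity IgG receptor), Plod3 and Rin2 (0.905, 0.885 and 0.850). Ly6c2 was most like Ms4a6c, Prdx5 and Glrx (0.752, 0.752 and 0.749), Ms4a6b most like Lyn, Gpr141 and Il10ra (0.706, 0.684 and 0.674), and Ms4a7 had no close match (Gpsm2, 0.450). With the group PAM + HMW + SeV left out, Glrx came to place 9 for Ly6c2 (0.716) and Rin2 to place 5 for Ly6e (0.847).

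Ly6a, Ly6c1 and Ly6i were too scarce to test and had no UMI in Ctrl, which allows up to 11.7 CPM (3 counts over the group, counting error only). Ly6a had 362 UMIs in 131 of the 192 libraries. SeV gave 38.2, 46.0 and 23.5 CPM, at least 2.86-fold higher than Ctrl by summed counts, and HMW + SeV 44.3, 25.5 and 42.4 CPM, at least 3.09-fold higher. PAM + LPS gave 18.2, 42.7 and 28.4 CPM, at least 2.66-fold higher. PAM + HMW + SeV held 73 Ly6a UMIs, of which 71 were in its replicate 3 (144 CPM, against 5.1 and 4.5). In a fit with no filter on low counts, over 14862 genes, Ly6a was called higher with SeV (adjusted p = 0.0123), PAM + LPS (0.00653), LPS + Zymosan (0.0176), HMW + SeV (0.00605) and PAM + HMW + SeV (8.9e-06). Neither Ly6i nor Ly6c1 was called in any group there. Ly6i had 91 UMIs in 54 libraries, and Ly6c1 had 17 in 16 libraries. No group held more than 2 Ly6c1 UMIs, so nearly all counts of the Ly6c pair were assigned to Ly6c2. With both genes summed before the fit, the log2 fold changes were 2.37 ± 0.55 for LPS, 2.40 ± 0.55 for CpGB and 2.15 ± 0.56 for PAM, against 2.37, 2.38 and 2.14 for Ly6c2 alone.

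Few other genes of both families were counted above the filter. Of 18 other Ly6-fold genes counted, 8 had a UMI, and 1 passed the filter: Plaur, the urokinase receptor, with no call. Of 13 other genes of the Ms4a kind 9 had a UMI, and only Tmem176a and Tmem176b, which cross the membrane in the same way, passed the filter, again with no call for any single ligand. Ms4a4b, a close relative of Ms4a4c, had 71 UMIs, and Ms4a4d had 57. Ms4a8a had 435 UMIs in 162 libraries, more than the 362 of the member Ly6a, and lay below the filter.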

How the data were processed

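RNA was measured in 192 libraries of 64 groups, 3 in each. Per the labels' protocols, the authors reverse transcribed total RNA with template switching, pooled the barcoded cDNA, prepared libraries with Nextera XT tagmentation and read them on a NextSeq. The values they deposited are whole-number UMI counts per gene symbol, not normalized. The submitters' processing notes name BWA 0.7.15 and mm10 without their role, and the rule for collapsing UMIs is not given in the sources used here. All 192 columns were mapped to samples by their titles, and no 2 libraries held the same values.

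Counts were analysed with edgeR 4.0.16 in R 4.3.3. The filter filterByExpr, with the group as factor and a minimum count of 10, left 4720 of 23481 genes, which hold 95.7% of all UMIs. With TMM factors, 1 quasi-likelihood fit of all groups (128 residual degrees of freedom, common biological coefficient of variation 10.3%) gave every contrast. Within each contrast, p-values were Benjamini-Hochberg adjusted over all 4720 genes. An effect against Ctrl, or of an added ligand on a background, was called at an adjusted p under 0.05 with a log2 fold change of at least 1. Interactions, mean added effects and contrasts between ligands passed at an adjusted p under 0.05 alone. For a pair above or below both single ligands, and a triplet above all of its pairs, the largest of the p-values was adjusted. SEs were computed from the fold change and the F statistic. CPM use TMM-scaled totals, and correlations use log2 CPM with a prior count of 2. A group without a UMI was set at 3 counts. Exact intervals are at 95%.

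The genes named are the 10 members, for each tested member the 3 genes with the highest correlation over the 64 groups, members of the fixed lists, and for each member the 3 highest and 3 lowest groups. Members, lists and tests were chosen with earlier results of these data known. Items withheld for evaluation are not reported here. Promoters were read from a RefSeq table of GRCm38.p6, and transcripts and positions from GENCODE vM21. The test was tried on simulated counts. Alternatives were other normalizations (RLE, library size alone), no filter, counts thinned to 46564 UMIs, DESeq2 1.42.0, a replicate block, each ligand with Ctrl alone, Ly6c1 and Ly6c2 summed, and libraries left out. Those that leave out a library of a pair or triplet were chosen after the data were seen.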

Additional observations from a re-analysis of the deposited data

Results flagged for a closer look

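In 5 cases the log2 change on adding a ligand to another ligand passed the test and had the opposite sign to the estimate on Ctrl, with a test of the difference that passed as well (edgeR, Benjamini-Hochberg over 4720 genes). The change on Ctrl passed in only 1 of them. How often all 4720 genes met this rule was not counted, so the 5 cases describe the members and support nothing. For Ly6e, LPS gave 1.15 on Ctrl (adjusted p = 4.0e-05) and -0.60 on cGAMP (adjusted p = 0.0358), and the difference of both log2 changes was -1.74 (adjusted p = 4.2e-06). PAM on Ly6e gave 0.69 on LPS against -0.44 on Ctrl, a difference of 1.13 (adjusted p = 0.0139). Its effect on Ctrl did not pass by itself, and the difference did not pass without replicate 2 or 3 of PAM + LPS.

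For Ms4a4c, PAM gave -1.78 on CpGB against 1.30 on Ctrl, a difference of -3.08 (adjusted p = 0.0198), from Ctrl libraries with 1 or 2 UMIs. For Ms4a6c, Zymosan gave -1.01 on PAM and -0.80 on CpGB against 0.97 on Ctrl, and the differences were -1.99 and -1.77 (adjusted p = 0.0111 and 0.0285). The changes on Ctrl did not pass in these 3 cases, with adjusted p of 0.391 for PAM and 0.250 for Zymosan. All 5 differences use the same 3 Ctrl libraries, so they are not independent of each other.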

How the results depend on the processing

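Depth limited many results. With every library thinned to 46564 UMIs, 70 of the 138 single results kept direction and side of the threshold, 58 no longer passed and 10 changed sign, where a move to or from 0 counted as a change. With this thinning, the members called against Ctrl went from 5 to 3 for LPS, from 6 to 3 for CpGB and from 2 to 0 for HMW. Calls over pairs went from 92 to 58, pair interactions from 44 to 10, interactions of 3 ligands from 28 to 2 and contrasts between ligands from 73 to 26. No call above both single ligands or above all 3 pairs was left (0 and 0). HMW calls were 0 with RLE factors, 1 with library size alone and 1 with DESeq2. Zymosan had 1 call with no filter. Calls above both single ligands, 3 in the fit reported, were 0 with library size alone and 1 with DESeq2, which left 0 calls above all 3 pairs. Leaving out 1 library or replicate number in turn gave 0 to 2 calls for HMW, 0 to 1 for Zymosan, 0 to 5 above both single ligands, 0 to 2 above all 3 pairs and 1 to 2 for the mean effect of SeV. Of the 101 steps of a ligand on a background other than Ctrl that were called for a member, 99 were still called with no filter, 98 with RLE factors, 87 with library size alone, 92 with DESeq2 (which gave no adjusted p for 3), 101 with the replicate block, 74 to 90 with 1 replicate number left out of every group, and 26 thinned. The part of thinning beyond its smaller counts, and the cause of the other changes, was not tested.

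Of 2333 values of 138 single results under the alternatives, 2010 kept direction and side of the threshold, 218 no longer passed, 39 newly passed and 66 changed sign. A value that rounded to 0.00 in either fit counted as a change of sign against any other value, so some of these are not reversals. No value whose sign changed had passed in both fits. The sign changes of Ms4a7 against Ctrl were as follows. For PAM (0.00) it was 0.19 with no filter, -0.13 with RLE factors, -0.19 with library size alone, -0.09 thinned, -0.13 with DESeq2 and -0.22 to 0.34 with libraries left out. For LPS (-0.20) it was 0.05 with no filter and -0.39 to 0.14 with libraries left out, for HMW (-0.01) 0.15 and -0.23 to 0.33, and for SeV (-0.25) -0.44 to 0.16 with libraries left out. Thinned, it was -0.15 for Zymosan and 0.00 for cGAMP. Ly6e with Zymosan (-0.03) was 0.15 with no filter and -0.30 to 0.20 with libraries left out. Also with libraries left out, Zymosan gave -0.04 to 0.73 for Ms4a4c and -0.83 to 3.74 for Ms4a6b, and HMW -2.62 to 4.77 for Ms4a6b.

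Mean added effects changed sign for cGAMP with library size alone (Ly6e -0.07, Ms4a6c -0.03, Ms4a6d -0.03, Ms4a7 -0.13) and thinned (Ly6e -0.03, Ms4a6c -0.04, Ms4a6d -0.02). For Ms4a7 the cGAMP effect was -0.03 with RLE factors, -0.03 with DESeq2 and -0.09 to 0.08 with libraries left out. Thinned, Ms4a7 had 0.00 for LPS, -0.26 for HMW and -0.30 for CpGB, and Ms4a6b had -0.22 for HMW. With libraries left out, Ms4a6b ran from -0.44 to 0.16 for PAM, from -0.23 to 0.05 for LPS and from -0.09 to 0.31 for HMW, and Ly6e from -0.08 to 0.01 for CpGB.

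The replicate numbers showed no strong pairing of the libraries. Deviations from group means correlated between groups at 0.00828 in the mean for the same number and at -0.00413 for other numbers. Among the 3 Ctrl libraries, 77 of 189 libraries correlated best with that of their own number. These values do not exclude a weak link by number. With replicate number as a block, counts over members moved by less than 1.5 times (93 calls over pairs, 147 over triplets against 145, and 31 interactions of 3 ligands against 28). The mean effects of cGAMP on Ms4a6b (adjusted p = 0.0503), of HMW on Ly6e (0.0388) and of Zymosan on Ms4a6d (0.0468) crossed the threshold, and Ms4a7 against Ctrl was 0.01 for PAM and 0.00 for HMW.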
